A study of Homo sapiens with 3 samples.

Results

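The genes described here build and guard the protein supply of mitochondria: the translocases that carry proteins across the outer and inner membranes, the chaperones that pull and fold them, and the proteases that cut or remove them. Members were chosen by gene name: names that begin with TIMM, TOMM or CHCHD followed by a digit, PAM16 and DNLZ, together with HSPA9, GRPEL1, LONP1, CLPP, CLPX, YME1L1, AFG3L2, SPG7, PMPCA, PMPCB, TRAP1, PHB and PHB2. Of the 8812 transcripts listed in all 3 tables, 37 were members, each standing for a different gene. Names in the rule without a listed transcript were not analysed here.

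The study asked how G418, an aminoglycoside that binds the ribosome's decoding centre, changes the ability of ribosomes to stop at stop codons. HEK293T cells, an established human embryonic kidney line, were profiled without drug (libraries Untreated A and Untreated B) or with G418 at 500 µg/mL for 24 hours (library G418 A). Where 3 values are given in a row without library names, they follow the order Untreated A, Untreated B, G418 A. Ribosome profiling counts mRNA fragments protected by ribosomes, so reads on a coding sequence (CDS) reflect mRNA level and translation together, and reads past the stop codon reflect ribosomes that went on into the 3′UTR. Nothing else distinguishes the groups in the labels, and no batch is named. The G418 group had 1 library, so no value of G418 has an error between cultures. The study describes its replicates as biological, while the labels name no separate cultures. The p-values therefore measure the spread between the untreated libraries as deposited, shared across transcripts and not taken for each gene alone. With 2 libraries against 1, an exact permutation test cannot give a p-value below 0.333.

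Most mitochondrial proteins are made on cytosolic ribosomes and imported. The TOM complex of the outer membrane receives them, the TIM23 complex and its HSP70 motor thread presequence proteins into the matrix, and small TIM chaperones ferry membrane proteins to the TIM22 complex. A matrix peptidase then removes the presequence, and proteases of the matrix and inner membrane, among them LONP1, CLPXP and the AAA proteases, clear proteins that fail to fold or assemble.

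The libraries held 5857230, 9477972 and 7216039 reads assigned to transcripts. The members took 0.520%, 0.506% and 0.529% of all CDS reads. Of the 6 markers listed for HEK293T, 5 were in the tables, while PAX2 was not analysed here. VIM stood at 2151, 2163 and 1710 RPKM (reads per kilobase of CDS, scaled to library size). KRT8 (479.5, 532 and 311.8 RPKM) and KRT18 (196.6, 262.1 and 191.4 RPKM) were lower. KRT10 (2.08, 4.29 and 1.53 RPKM) and NES (4.10, 4.39 and 3.41 RPKM) were as low as some markers of other cell types. Of 8 markers of other cell types, COL1A1 (7.99, 10.7 and 8.61 RPKM), GFAP (4.71, 3.77 and 3.45 RPKM) and ACTA1 (65.4, 57.4 and 40.5 RPKM) were listed. The part of those cell types in the results was not tested.

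The stop codon and its surroundings are where a readthrough event happens, and the members used 21 UGA, 10 UAG and 6 UAA stops. Of the 31 members with enough CDS reads, 54.84% ended in UGA, 25.81% in UAG and 19.35% in UAA. Over all 5684 such transcripts the shares were 48.89%, 21.09% and 30.01%. Sequences are shown for members at either end of the readthrough range described below and for the 2 members whose 3′UTR reads passed the test. Each runs from 15 nt before the stop codon to 12 nt after it, 5′ to 3′ on the transcript strand, with the stop codon and the base that follows it in capitals. They come from the hg38 genome with GENCODE release 44, matched by transcript identifier, which found 35 of the 37 members. High readthrough scores in G418 A were measured on the first 5 sequences, the test called the next 2, and low scores were measured on the last 4.
GRPEL1: gtggtgaaggaagctTAGCtgctgttgatg
CHCHD10: ctgagctccctgcccTGAAgaggtcggtgc
CHCHD1: aaaccttacctcagcTGAAaatggacaagt
TIMM21: cgatcccaagatgatTAAAatagggtttct
TIMM9: cttggccaaccacgaTAGAgaagtcctgat
TIMM23: ctccaacagtcactcTGAAgattttgccaa
TOMM6: cctcagccaggggtgTAGCcaagtagacaa
TIMM10: agctctgggcctgcaTGAGgtccctgtcag
TOMM7: gtgctctggctcggaTAAGagatgggacat
TIMM44: accgagcagattctcTGAGtgtggtgccgg
PMPCB: tgttggcttcgtgatTAAAatgctcctaat

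All of these stop codons lie in the last exon of their transcript except that of TOMM6, which lies in exon 2 of 3 (plus strand, chr6:41789326-41789328). On the plus strand lie the stops of TIMM21 (exon 6, chr18:74158478-74158480), TIMM23 (exon 7, chr10:46003316-46003318), PMPCB (exon 13, chr7:103312269-103312271) and CHCHD1 (exon 3, chr10:73783185-73783187). On the minus strand lie those of GRPEL1 (exon 4, chr4:7060862-7060864), CHCHD10 (exon 4, chr22:23766007-23766009), TIMM9 (exon 3, chr14:58409034-58409036), TIMM10 (exon 3, chr11:57528717-57528719), TOMM7 (exon 4, chr7:22813097-22813099) and TIMM44 (exon 13, chr19:7927187-7927189). Among the sequences shown, UGA and UAA stops appear at both the high and the low end, and UAG stops appear among the high scores and in TOMM6. The letters CTA directly after the stop codon, on the transcript strand, a context known to favour readthrough after UGA, were found in none of the 35 matched members and in 0.871% of 5514 matched transcripts with enough CDS reads. That motif was searched only in those 3 positions.

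On the scale of RPKM, which allows genes of different length to be compared, CDS density spanned 170-fold over the members, from 3.71 for TOMM40L to 630 for TOMM20 in the untreated mean. The median member stood at 94.5 RPKM, against 18.9 over all 8812 transcripts, and 33 of the 37 members were above that figure. The 3 densest were TOMM20, TOMM6 and TIMM13. TOMM20, the presequence receptor of the outer membrane, had 640 and 619 RPKM without drug and 672 with G418. TOMM6, a small subunit that stabilises the TOM complex, had 620, 511 and 669 RPKM. TIMM13, which pairs with TIMM8 proteins in the intermembrane space, had 380, 399 and 409 RPKM. In RPKM, G418 A was the highest library for each of these 3 genes. None of the differences passed the test described below, and with the scaling used there the log2 differences were 0.02, 0.17 and -0.0014.

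In the TOM group the small subunits TOMM7 (314 ± 63.4 RPKM, SD, n = 2 untreated libraries) and TOMM5 (279 ± 11.2) and the receptor TOMM22 (280 ± 11.4) stood close together and did not separate beyond that spread, and the receptor TOMM70 was lower at 59.7 ± 5.01. In the TIM23 group TIMM23, the channel subunit, had 204 ± 0.810 RPKM, next to TIMM17A at 197 ± 12.01. TIMM50, the receptor of that complex, had 169 ± 1.44 and TIMM17B 160 ± 15.3. The 2 subunits of the processing peptidase were also near each other, PMPCB at 171 ± 12.5 and PMPCA at 136 ± 7.63. Among proteases and chaperones, the scaffold protein PHB led with 259 ± 18.5 RPKM, and the matrix protease LONP1 (20.3 ± 1.34) and the AAA protease subunit SPG7 (8.99 ± 0.718) were lowest.

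**Figure D1:**
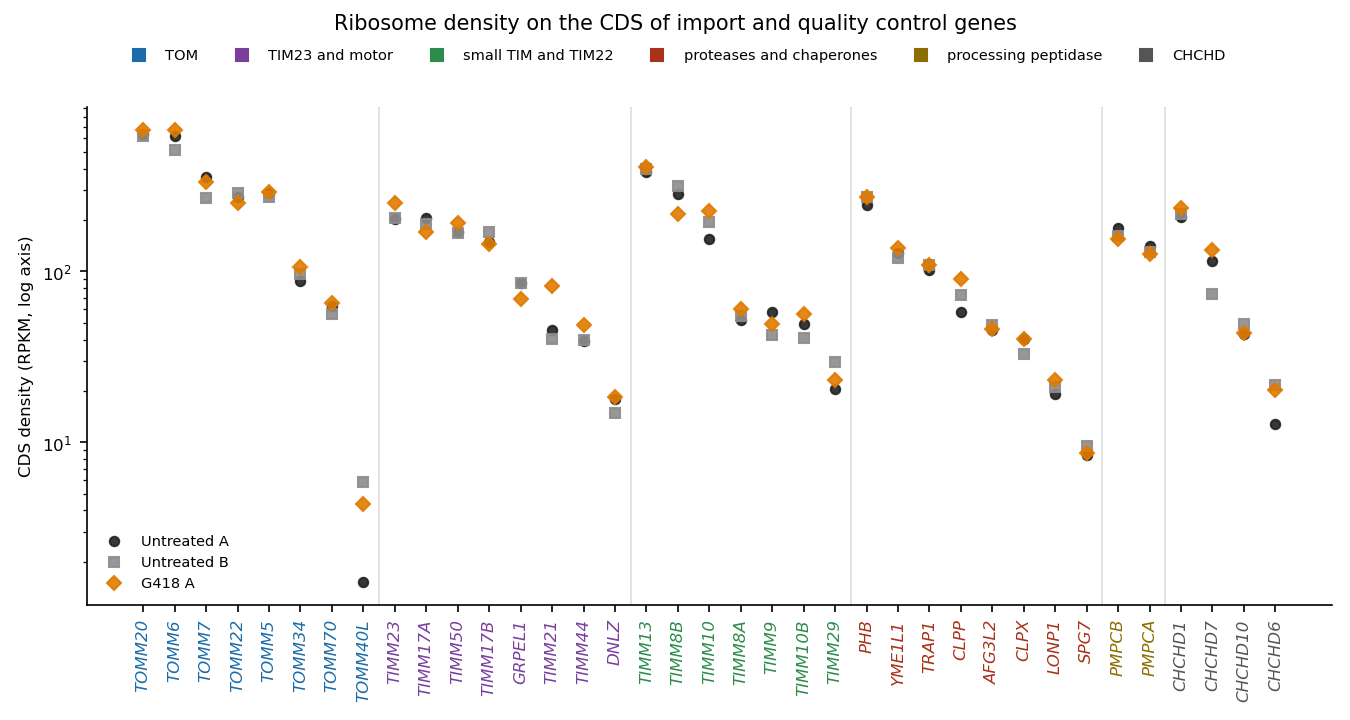
CDS density of each of the 37 members in RPKM on a log axis, 1 point per library, with members grouped by role and ordered by the untreated mean. The 3 points of most members lie close together, those of TIMM21 show G418 A apart at 82.3 RPKM, and TOMM40L runs from 1.53 to 5.90 RPKM on few reads.

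Differences in CDS occupancy between G418 and untreated cells were small for most of these genes, with 26 of 31 tested members within 0.3 of 0 on the log2 scale. Tested were members whose mean CDS count reached the minimum used in the study for its readthrough scores. Of these, 1 passed the test as higher and 0 as lower (edgeR quasi-likelihood test, adjusted p under 0.05 over 5680 transcripts), while 1.90% of all tested transcripts were called higher and 0.722% lower. At an unadjusted p under 0.05 there were 2 of the 31 members, TIMM21 and TIMM8B, and 13.5% of all tested transcripts. DESeq2 called 0 members but gave no adjusted p to 15 of the 31. The median log2 change was 0.02 for the members and 0.00 over all tested transcripts. Counting without a test, 12 members had G418 A above both untreated libraries and 10 below both, where 37.1% and 36.2% of all tested transcripts did so. No member reached a log2 change of 1 in either direction, as 0.951% of all tested transcripts did. The median size of the log2 change, regardless of sign, was 0.16 for G418 A against the untreated pair. Between the untreated libraries, 1 against the other, it was 0.14, so the figures are not like for like.

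TIMM21, a subunit of the TIM23 complex that contacts the TOM side and also escorts respiratory chain subunits, was the member called. Its CDS density was 45.7 and 40.5 RPKM in the untreated libraries and 82.3 in G418 A. The G418 library thus stood clear of both untreated libraries, with a log2 change of 0.87 (SE 0.25, edgeR adjusted p = 0.0354). The call was lost when transcripts with a mean of only 20 CDS counts entered (adjusted p = 0.0504) or all listed transcripts did (adjusted p = 0.0550), and DESeq2 gave it no adjusted p. The log2 change was 0.97 against Untreated B alone and 0.77 against Untreated A alone.

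No other change passed the test. CHCHD7, a twin cysteine protein of the intermembrane space, had 115, 73.6 and 134 RPKM (log2 difference 0.45, SE 0.31). Its untreated libraries lay farther apart (log2 -0.67, B over A) than G418 lay from their mean. CLPP, the proteolytic chamber of CLPXP, had 58.0, 73.0 and 89.96 RPKM (log2 difference 0.39, SE 0.22). TIMM8B, partner of TIMM13, had the largest difference in the other direction, with 285, 316 and 217 RPKM (log2 difference -0.54, SE 0.22, edgeR adjusted p = 0.198). GRPEL1, the nucleotide exchange factor of the mitochondrial HSP70, had 86.0, 85.3 and 68.7 RPKM (log2 difference -0.39, SE 0.24). TIMM17A, a TIM23 subunit, had 206, 189 and 171 RPKM (log2 difference -0.28, SE 0.20). For these 3, G418 A was below both untreated libraries.

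By role, the medians of the log2 differences were 0.02 over 7 tested TOM members, 0.12 over 7 of TIM23 and its motor, -0.10 over 4 of the small TIM and TIM22 group, 0.04 over 8 proteases and chaperones, -0.19 over the 2 processing peptidase subunits and 0.07 over 3 CHCHD members. The peptidase pair was the group in which every member was lower, PMPCA by -0.16 (SE 0.18) and PMPCB by -0.22 (SE 0.18) on the log2 scale, and neither difference passed the test. The stress protease LONP1 differed by 0.12 (SE 0.22), its partner in matrix quality control CLPX by 0.08 (SE 0.21), and the matrix HSP90 chaperone TRAP1 by -0.03 (SE 0.18). The AAA protease genes AFG3L2 and YME1L1 differed by -0.10 (SE 0.19) and 0.07 (SE 0.18).

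**Figure D2:**
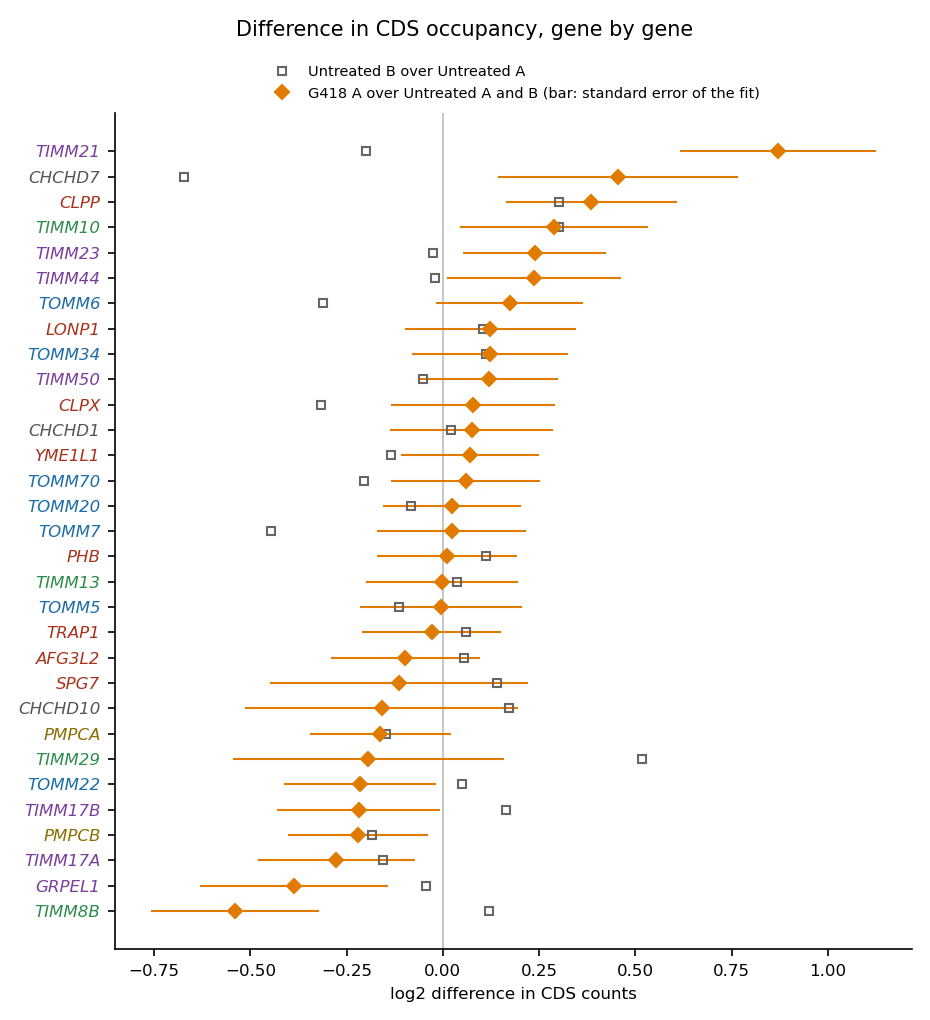
Log2 difference in CDS counts of the 31 tested members, with G418 A over the untreated pair as diamonds with standard errors and Untreated B over Untreated A as open squares. TIMM21 lies farthest to the right at 0.87 and TIMM8B farthest to the left at -0.54, and the diamonds of 26 members are within 0.3 of 0.

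A wider list of 43 genes that act with the members (sorting and assembly, MICOS, peptidases and the stress response of mitochondria) was examined in the same fit. In that list 28 genes could be tested, 0 were called in either direction by edgeR, and 3 had an unadjusted p under 0.05. Over all tested transcripts 1.90% were called higher and 0.722% lower, and 13.5% had an unadjusted p under 0.05. The log2 differences of the listed genes ran from -0.50 for OMA1, an inner membrane protease, to 0.50 for MTX2, an outer membrane assembly factor. Their median was -0.09. ATF4, the transcription factor of the integrated stress response, had 22.4, 20.4 and 28.3 RPKM (log2 difference 0.34, SE 0.31).

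Past the stop codons the G418 library stood well above the untreated ones. Reads in the 3′UTR came to 194 and 235 without drug and 1333 with G418 over all 37 members, which was 0.951%, 0.724% and 4.88% of their CDS and UTR reads. Over all 8812 transcripts the shares were 0.389%, 0.334% and 2.55%. At least 1 such read was found for 20, 27 and 37 members. Among all transcripts listed for each library it was found for 3167 of 9099, 3272 of 9311 and 6790 of 9370. Relative to CDS counts, 29 of the 31 tested members had more 3′UTR counts in G418 A than in either untreated library, as 80.8% of all tested transcripts did. The others were TOMM7 and SPG7, which has 1 such read in G418 A. The fits gave a median log2 difference of 3.75 beside 3.43 over all 5680 tested transcripts. Of the 31, 7 had no 3′UTR count in either untreated library, and with such transcripts set to a floor of 3 counts over the untreated group the medians were 2.97 and 2.14.

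Only 2 of these differences passed the test, those of TOMM6 and TIMM23 (edgeR quasi-likelihood test with CDS counts as offset), where 3.89% of all tested transcripts were called higher. At an unadjusted p under 0.05 there were 11 of the 31 members and 12.1% of all tested transcripts. DESeq2 called 0 members and 0 transcripts, but gave no adjusted p to 12 of the 31 members and 3847 of 5088 transcripts. TOMM6 had 20 3′UTR reads beside 697 CDS reads, 20 beside 929 and 174 beside 927 (log2 2.97, SE 0.85, adjusted p = 0.0170). TIMM23 had 9 beside 711, 5 beside 1157 and 152 beside 1088 (log2 4.19, SE 1.09, adjusted p = 0.00552). Both were far higher in the G418 library than in either untreated library. On readthrough reads alone, described next, their log2 differences were 5.10 and 3.59 (adjusted p = 0.0254 and 0.0313 by edgeR), and under DESeq2 on the whole 3′UTR the adjusted p-values were 0.238 and 0.141. TIMM23 has a nearly identical copy in the genome, TIMM23B, and the authors kept the primary alignment of reads that match several places, so its values are uncertain.

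A ribosome that reads through the normal stop codon goes on until it meets another in-frame stop codon, within the 3′UTR. The ribosome readthrough score (RRTS) is the read density in that stretch as a percentage of the CDS density of the same transcript. By its length the stretch includes that next stop codon, where the study saw ribosomes enriched with G418. Reads there weigh most in short stretches, and their part in each score was not tested. The stretch would add between 5 and 126 amino acids to the members' proteins, with a median of 18, so a few reads decide many scores. Intervals given with a score are exact Poisson 95% intervals of its reads and, like the limits for 0 reads, cover counting error only. A score of 0 means no read, and its upper limit was set throughout at 3 reads.

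Pooled over the 31 members with enough CDS reads, the RRTS was 2.96% (59 reads, interval 2.25% to 3.81%) and 1.71% (54 reads, 1.28% to 2.23%) in the untreated libraries. In G418 A it was 30.4% (786 reads, 28.3% to 32.6%). G418 stood 13.0-fold above the untreated mean of 2.33% ± 0.881 (SD, n = 2). Over the 5653 other transcripts the values were 1.56%, 1.24% and 21.3%, a 15.2-fold difference. The members' pooled score was thus above that of the others in all 3 libraries. By role this did not always hold. In Untreated B the TIM23 and motor group (1.155%) and the small TIM and TIM22 group (0.642%) were below the others, and the remaining roles above. In Untreated A the proteases and chaperones had 0 readthrough reads. In G418 A the processing peptidase subunits (14.0%) were below the others, and the remaining roles above. The tested genes of the wider list had 2.19%, 0.697% and 25.9%. Whether members differ from other transcripts was not tested, and these pooled scores were not matched for stop codon.

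The pooled scores were lowest for UAA stops. Members ending in UGA (17 tested) had a pooled RRTS of 33.7% (30.9% to 36.7%) in G418 A, those ending in UAG (8) had 29.8% (26.0% to 33.9%) and those ending in UAA (6) had 14.6% (10.6% to 19.7%). The UGA and UAG intervals overlapped, and without TOMM6, which gave 112 of the 225 UAG reads, the UAG score was 35.2%. Over all transcripts the scores were 29.9% (UGA), 19.2% (UAG) and 12.2% (UAA). In the untreated libraries the UAA members had 5.91% and 5.23%, above the 1.19% and 1.02% of all UAA transcripts. All 15 and 18 untreated reads behind those values came from TOMM7 and PMPCB, and the other 4 UAA members had 0 reads in both untreated libraries and 15 in G418 A.

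**Figure D3:**
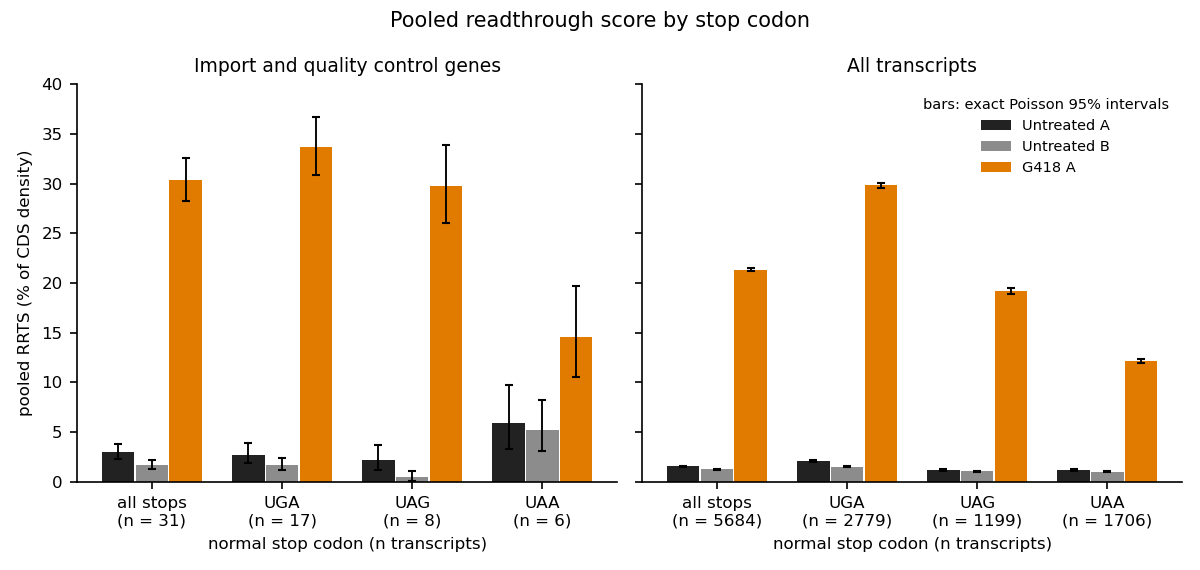
Pooled RRTS as a percentage of CDS density by library for the 31 members (left) and all 5684 transcripts with enough CDS reads (right), over all stops and by stop codon, with exact Poisson 95% intervals. Members reach 33.7% for UGA and 14.6% for UAA in G418 A, and their untreated UAA bars, at 5.91% and 5.23%, rest on TOMM7 and PMPCB.

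An RRTS above 0 was measured for 14, 15 and 33 of the 37 members. Of the 31 with enough CDS reads it was 13, 14 and 27, where 24.0%, 22.3% and 75.8% of all such transcripts were above 0. Of the same 31 members, 26 had a score in G418 A above both untreated scores, where 72.0% of all such transcripts did. Over all 37 members this held for 32. The exceptions were TOMM22 and the 4 members with no readthrough read in any library, PMPCA, TOMM34, TOMM70 and TIMM10. The lower bound of the G418 interval cleared the upper bounds of both untreated intervals for 18 of the 37, and for 16 of the 31 with enough CDS reads, where 27.6% of all such transcripts did. For 18 of the 31 the G418 score was above 21.3%, the pooled value of all transcripts, as it was for 45.5% of all. These shares were not matched for depth. A mean of at least 500 CDS counts was reached by 21 of the 31 tested members and by 2407 of all 5680 tested transcripts.

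In the TOM complex, TOMM6 gave the most readthrough reads of any member. It had 5 reads (RRTS 1.53%), 0 reads and 112 reads (25.8%, interval 21.2% to 31.0%), and the stretch would add 31 amino acids. TOMM20 had 1 read (0.684%), 1 read (0.437%) and 65 reads (34.3%, 26.5% to 43.8%). TOMM5, a small subunit at the channel, had 13 reads (17.2%), 5 reads (4.32%) and 46 reads (48.5%, 35.5% to 64.7%). As ratios, its untreated scores lay farther apart than those of Untreated A and G418 A. These scores are for its listed transcript, with 264 counted nt of CDS, and no other TOMM5 transcript was examined.

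TOMM7, which helps regulate TOM assembly and PINK1 at the outer membrane, stood apart. The scores are for its listed transcript, with 345 counted nt of CDS, and no other TOMM7 transcript was examined. Readthrough reads of the listed transcript were 10, 10 and 12, giving scores of 8.35%, 6.88% and 8.73% (4.51% to 15.3% in G418 A). The G418 score was 1.16 times the pooled untreated score, and the 3 libraries overlapped. At the pooled score of all transcripts, 29.3 reads would have been found in G418 A. TOMM22 had 3 reads (15.7%), 0 reads and 2 reads (9.13%), too few to order. TOMM34, a cytosolic cochaperone, and TOMM70 had 0 reads, and 3 reads would have meant 14.5% and 42.5% in G418 A, so a lower score was not detectable at this depth. TOMM40L, a relative of the channel protein, had 0, 0 and 3 reads (103%) on 8, 50 and 28 CDS reads.

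**Figure D4:**
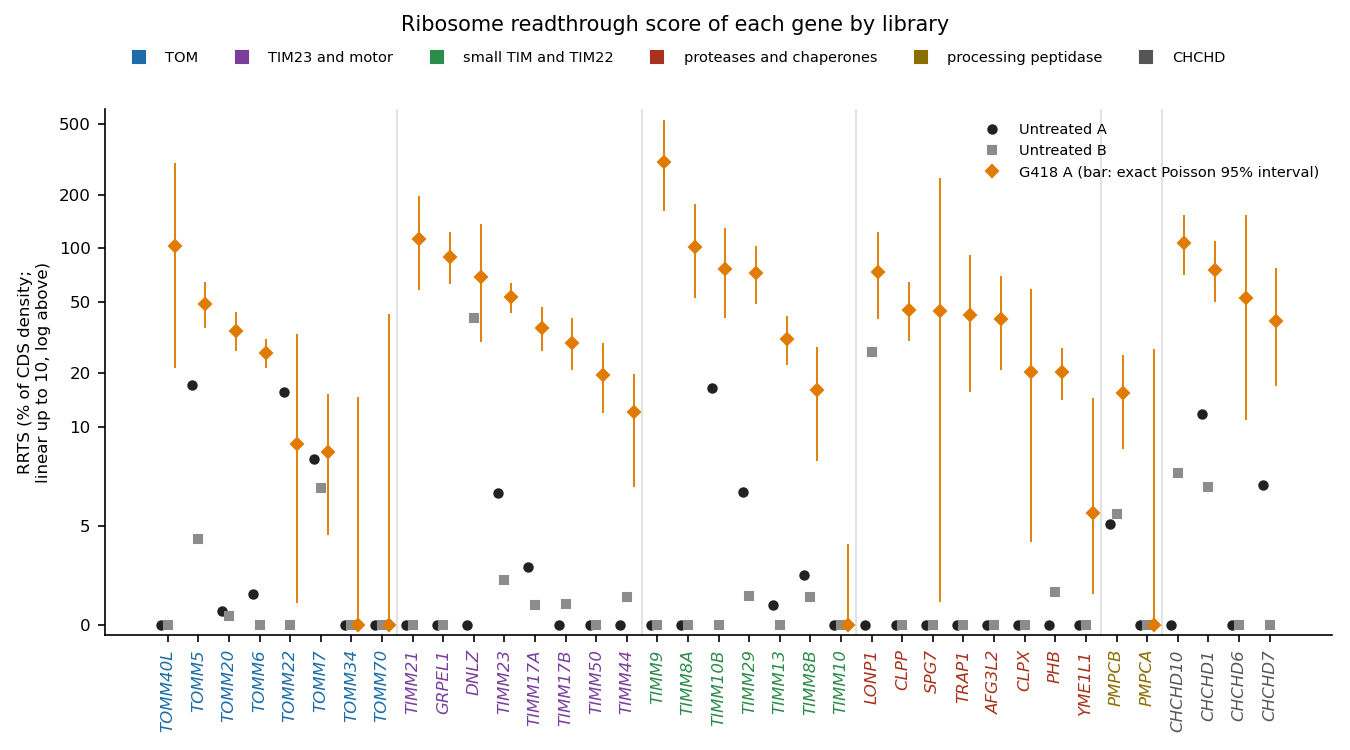
RRTS of each of the 37 members by library, as a percentage of CDS density on an axis that is linear up to 10 and logarithmic above, grouped by role, with exact Poisson 95% intervals for G418 A (for 0 reads, up to 3 reads). Points of G418 A lie above both untreated points for 32 members, whereas the 3 points of TOMM7 lie together near 8%, and TIMM9 reaches 306%.

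Among TIM23 and motor genes every member had a readthrough read in G418 A. GRPEL1 had 0 reads in both untreated libraries (3 reads would have meant 7.35% and 4.58%) and 36 reads in G418 A, a score of 89.6% (62.8% to 124%). That is at least 31.7-fold higher than a floor of 3 reads over the untreated group. TIMM23 had 9 reads (6.63%), 5 reads (2.26%) and 110 reads (53.0%, 43.5% to 63.8%), 13.5 times the pooled untreated score. TIMM17A had 4 reads (2.91%), 2 reads (0.981%) and 50 reads (35.6%, 26.4% to 46.9%), a ratio of 20.2. Its paralog TIMM17B, with a UGA in place of a UAG stop, had 0 reads, 2 reads (1.05%) and 36 reads (29.4%). For all 4 genes G418 A was separate from both untreated libraries.

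TIMM21, the member called in CDS occupancy, had 0 reads in both untreated libraries and 12 in G418 A, a score of 112% (58.0% to 196%) over a stretch that would add 7 amino acids. It ends in UAAA, the signal that PMPCB, TOMM34, TOMM70 and CLPX share. A floor of 3 reads over the untreated group came to 25.6%, and the G418 score was at least 4.39-fold higher. TIMM50 had 0, 0 and 21 reads (19.4%), at least 13.0-fold over the same kind of floor. TIMM44, which tethers HSP70 to the channel and has the longest stretch of 126 amino acids, had 0 reads, 2 reads (1.42%) and 16 reads (12.1%, 6.92% to 19.7%) where 28.2 would have been found at the pooled score. DNLZ, an HSP70 escort, had 0, 5 (40.8%) and 8 reads (69.2%) on 53 to 71 CDS reads.

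The small TIM chaperones covered the whole range. TIMM9, which forms a hexamer with TIMM10, had 0, 0 and 13 readthrough reads, a score of 306% (163% to 523%) in a stretch of 12 counted nt and on 84 CDS reads. TIMM10, its partner, had 391 CDS reads in G418 A and no readthrough read in any library, and 3 reads would have meant 4.09% in G418 A, while 15.6 reads would have been found at the pooled score. Between them, TIMM13 had 1 read (0.998%), 0 reads and 41 reads (30.9%). TIMM8A had 0, 0 and 12 reads (102%, 52.6% to 178%). TIMM10B, a TIM22 subunit, had 2 reads (16.4%), 0 reads and 13 reads (76.4%, 40.7% to 131%).

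TIMM8B, whose CDS occupancy had the lowest log2 difference, had 2 reads (2.49%), 2 reads (1.39%) and 12 reads (15.9%, 8.24% to 27.9%), below TIMM8A in score. TIMM29, a TIM22 subunit, had 2 reads (6.69%), 1 read (1.43%) and 30 reads (72.3%, 48.8% to 103%) over a stretch of 84 amino acids. In both, G418 A was above each untreated library. TIMM8A, TIMM9 and TIMM10B were among the 6 members with too few CDS reads for the tests.

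Proteases and chaperones had 0, 10 and 106 readthrough reads in all. CLPP had 0, 0 and 29 reads (45.1%, 30.2% to 64.8%), at least 15.4-fold over a floor of 3 reads in the untreated group. PHB had 0 reads, 4 reads (1.67%) and 37 reads (20.1%), a ratio of 18.8. AFG3L2 had 0, 0 and 12 reads (39.9%). LONP1 had 0 reads, 6 reads (26.2%) and 14 reads (73.5%, 40.2% to 123%), but 33 of the 114 counted nt of its stretch belong to the CDS of another annotated LONP1 transcript. YME1L1 had 0, 0 and 4 reads (5.63%, 1.53% to 14.4%) on 2160 CDS reads, the lowest score above 0 in G418 A, where 15.1 reads would have been found at the pooled score. CLPX had 0, 0 and 3 reads (20.2%), and SPG7 had 0, 0 and 1 (44.2%), too few to order.

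The matrix chaperone TRAP1 had most of its 3′UTR reads outside that stretch. It had no 3′UTR read in either untreated library and 36 in G418 A. Of these, 6 lay in the stretch that ends with the next in-frame stop codon (42.3%) and 30 after it. That stretch has 18 counted nt, beside 86 in the 3′UTR of TRAP1. Several other members, such as TIMM10B and CHCHD1, also had most 3′UTR reads after the stretch in G418 A. Over all members 495 of 1333 3′UTR reads in G418 A lay after that stop codon, 133 of 194 in Untreated A and 176 of 235 in Untreated B. The share inside the stretch was thus 62.9% in G418 A and 31.4% and 25.1% in the untreated libraries, beside 64.4%, 33.4% and 31.9% over all transcripts.

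The subunits of the processing peptidase had the lowest pooled score in G418 A of the 6 roles, 14.0% (7.99% to 22.7%). PMPCB had 5 reads (5.10%), 8 reads (5.60%) and 16 reads (15.5%, 8.84% to 25.1%), 2.87 times its pooled untreated score, and the untreated libraries were alike. PMPCA had 0 readthrough reads in all 3 libraries, and 3 reads would have meant 27.2% in its short stretch. The CHCHD members had the highest pooled score, 76.6% (58.9% to 98.0%) over 3 tested members. CHCHD10, linked to motor neuron disease, had 0 reads, 3 reads (7.65%) and 28 reads (106%, 70.7% to 154%). CHCHD1, a subunit of the mitochondrial ribosome, had 3 reads (11.7%), 3 reads (6.97%) and 27 reads (75.9%). CHCHD7 had 1 read (7.05%), 0 reads and 8 reads (39.3%). CHCHD6, a MICOS subunit whose CDS density was 12.9, 21.6 and 20.3 RPKM, had 0, 0 and 3 reads (52.4%).

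Readthrough reads in both untreated libraries were found for 9 members, TOMM5, TOMM7, TOMM20, TIMM8B, TIMM17A, TIMM23, TIMM29, PMPCB and CHCHD1. All 9 were among the 31 with enough CDS reads, where 11.6% of all such transcripts did the same. That share too was not matched for depth, and the part of depth was not tested. The other members' untreated scores rested on 1 library or were 0.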

How the data were processed

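Ribosome profiling libraries from HEK293T cells (Untreated A, Untreated B, G418 A) were grouped by their treatment labels. Per the study's methods, the authors collapsed duplicate reads by molecular identifier, trimmed linkers, removed noncoding RNA and aligned reads with STAR (version not given in the sources used here) to hg38. Fragments of 28 to 35 nt were assigned to 1 transcript per gene of GENCODE release 30. The submitters' processing notes also name CASAVA 1.8.

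The authors deposited whole-number counts, RPM values (reads scaled to a common library total), RPKM values and ratios (the RRTS and the 3′UTR occupancy) for each transcript. The first 18 and last 15 nt of the CDS and the first 6 nt of the 3′UTR were left out of the densities by the authors. All RPM values were whole multiples of 1 read (100% within a tolerance of 0.01), so reads were recovered by division. The deposited counts of CDS reads were 1 below the recovered reads for 9080 (Untreated A), 283 (Untreated B) and 72 (G418 A) transcripts. Deposited counts were used in the tests and recovered reads for the RRTS.

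CDS counts were compared with edgeR 4.0.16 (R 4.3.3, TMM, quasi-likelihood test, Benjamini-Hochberg adjustment, the study's minimum of CDS counts applied to the mean). The 3′UTR counts were compared in the same way with log CDS counts as offset and no filter on the 3′UTR. The fits have 1 residual degree of freedom, so the spread was shared across transcripts. The lone G418 library is assumed to vary like the untreated ones. Pooled RRTS is the sum of readthrough reads over the sum expected from CDS density, for transcripts whose mean of recovered CDS reads reached the same minimum, with exact Poisson 95% intervals (scipy 1.17.1), whose upper limit for 0 reads was set to 3 reads. DESeq2 1.42.0, other scalings, filters and regions were tried as alternatives.

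Every member was accounted for. Those named with values in each library were the members called, the 3 largest differences in CDS occupancy each way, the 3 densest CDS, the 8 highest RRTS in G418 A among members with at least 10 readthrough reads, the 5 lowest among those with at least 10 reads expected, and members above 0 in both untreated libraries. Other named members were chosen after their values were seen. The members and lists were chosen with earlier results of these data known.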

Additional observations from a re-analysis of the deposited data

How the results depend on the processing

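The count of called members in CDS occupancy (1) became 0 under DESeq2, under a mean of at least 20 CDS counts, with no filter, and at 500 CDS counts, where TIMM21 was not among the transcripts tested. It stayed 1 with RLE factors, without scaling factors and with recovered reads. Over all transcripts the 149 CDS calls became 27 under DESeq2 (393 at an unadjusted p under 0.05, and 3634 without an adjusted p) and 34 of 2407 tested at 500 counts. TIMM21 kept its direction, at a log2 change of 0.84 with a minimum of 20 counts and 0.84 without a filter. In 3′UTR occupancy the 2 called members became 3 with recovered reads or at 500 counts, and 0 under DESeq2. There, DESeq2 called 0 of 5088 transcripts (605 at an unadjusted p under 0.05, 5 of them members, and 3847 without an adjusted p). The 221 calls over all transcripts became 357 with recovered reads and 135 with readthrough reads alone. The median log2 CDS change of the members (0.0227) was 0.0902 on RPM as deposited, 0.0698 without scaling factors and 0.0648 at 500 counts, and between 0.0021 and 0.0646 when an untreated library was left out. The fold of the pooled RRTS was 17.8 without Untreated A and 10.3 without Untreated B. The pooled RRTS in G418 A ran from 28.4% to 31.7% over its alternatives, the lowest at 500 CDS reads. Values without LONP1 (30.1%) and without TIMM23 (28.4%) were added after seeing the data. The causes of these shifts were not tested. No paired analysis was possible because the groups share only the letter A, with 1 library in G418. Depth limits scores where CDS reads are few or the stretch is short: in G418 A, 3 reads stand for 133% in SPG7, 103% in TOMM40L and 1.58% in TOMM20.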

Other observations

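Some members also carried ribosomes ahead of their start codons. Reads in the 5′UTR came to 287 and 449 without drug and 278 with G418 over the 37 members, or 1.41%, 1.38% and 1.02% of their CDS and UTR reads, where all listed transcripts had 2.35%, 2.45% and 2.15%. No test was run on these counts. In the order Untreated A, Untreated B, G418 A, TIMM9 had 42, 43 and 22 such reads, a 5′UTR density of 76.8%, 65.5% and 38.3% of its CDS density. TIMM21 had 50, 60 and 66 reads, a density of 66.8%, 55.8% and 39.7%. TOMM20 had 37, 46 and 15 reads (8.50%, 6.76% and 2.67%), and TOMM5 had 19, 24 and 8 (17.1%, 14.1% and 5.75%). In all 4 the share of CDS density was lowest in G418 A, and TIMM21's higher CDS occupancy stands in its denominator. TOMM70, by contrast, had 36, 75 and 38 reads (21.96%, 31.8% and 18.2%), with the untreated libraries farther apart than Untreated A was from G418 A. PHB (7.25%, 5.21% and 9.06%) and TOMM6 (4.08%, 7.655% and 8.44%) were instead highest in G418 A. The members named here were chosen after their values were seen.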
